A study of Mus musculus with 13 samples.

Results

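The 8 genes described here, Tcf21, Npnt, Scube2, Fgf10, Inmt, Ces1d, Plin2 and Limch1, were chosen by symbol as genes of alveolar fibroblasts and lipofibroblasts. They are 8 of the 20270 genes listed in the deposited tables, and all 8 passed the filter on low counts that left 15315 genes for testing. RNA was sequenced from the lower right lung lobe of 13 mice in 3 groups. The 4 control mice (libraries 3, 21, 24 and 26) were WT and received saline. The 5 WT bleomycin mice (libraries 4, 2, 5, 4-B2 and 7) were taken 14 days after a single oropharyngeal dose of 1 U per kg. The 4 CB1R KO bleomycin mice (libraries 8, 9, 10 and 11) lack Cnr1, the gene of cannabinoid receptor 1, in the whole body on a C57BL/6J background, and were taken on the same day after the same dose. WT mice were C57BL/6J males 13 weeks of age, and neither an age nor a sex of the CB1R KO mice was clearly given in the sources used here. The study obtained C57BL/6J mice from The Jackson Laboratory and cites earlier work for how the CB1R KO mice were generated. Littermates are not mentioned, so the deletion cannot be told apart from a difference in animal source. Uninjured CB1R KO lungs were not analysed here, so an effect of the deletion in uninjured lung cannot be told apart from one on the response to bleomycin.

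Alveolar fibroblasts lie in the walls between air sacs, where they make matrix and signal to the epithelium beside them. Lipofibroblasts are a state of these cells that carries lipid droplets, stores retinoids and passes lipid to type II cells, which use it to make surfactant. After injury, fibroblasts can take on an activated state that makes collagen, and bleomycin is the standard agent used to provoke it in mouse lung.

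The libraries other than CB1R KO library 11 held between 14615904 and 16662580 estimated counts, and library 11 held 53463884, or 3.33 times their median. Cnr1, the deleted gene, was read at 1.62 to 4.10 CPM (estimated counts scaled to the library total by the TMM method) in control, 3.46 to 6.97 in WT bleomycin and 2.47 to 5.63 in the libraries labelled CB1R KO. The groups overlapped and the tables do not tell reads of the deleted stretch from other Cnr1 reads, so these levels do not check the genotype, and CB1R KO is used below as the label gives it. The title style splits the libraries, since control 26, WT bleomycin 4-B2 and WT bleomycin 7 are written with capitals. What this style marks was not given in the sources used here. Results with and without those libraries are given only for the genes chosen by symbol and for the total of genes that passed the test. For all other genes named below, the calls are from the fit of all libraries alone.

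The sequences just upstream of the start sites are shown for 4 of the genes, as RefSeq records them for mouse build GRCm38.p6, which is another build than the GRCm39 reference named in the processing notes. Inmt and Scube2 are shown because they were the genes that passed the test between CB1R KO and WT bleomycin lungs, Plin2 because it was the gene that rose after bleomycin, and Tcf21 because it encodes a transcription factor. Each is the 250 bases before the start, written 5′ to 3′ along the gene. Capitals mark CAGCTG, an E-box of the kind that basic helix-loop-helix factors such as TCF21 bind, AGGTCA, a half-site of nuclear receptors, and TATAAA, the TATA box, searched on both strands. None of these motifs overlapped another.
Inmt, chr6:55174991-55175240, minus strand: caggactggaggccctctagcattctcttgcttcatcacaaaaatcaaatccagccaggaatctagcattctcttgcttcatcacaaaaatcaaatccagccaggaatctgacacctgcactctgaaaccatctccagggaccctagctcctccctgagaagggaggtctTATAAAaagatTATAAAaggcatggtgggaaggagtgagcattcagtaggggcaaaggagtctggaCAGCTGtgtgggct
Scube2, chr7:109865680-109865929, minus strand: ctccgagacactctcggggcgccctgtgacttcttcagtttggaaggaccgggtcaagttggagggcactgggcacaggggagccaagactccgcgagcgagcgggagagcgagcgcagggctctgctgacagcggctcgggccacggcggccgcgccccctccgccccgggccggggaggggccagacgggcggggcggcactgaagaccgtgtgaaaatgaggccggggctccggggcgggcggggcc
Plin2, chr4:86670060-86670309, minus strand: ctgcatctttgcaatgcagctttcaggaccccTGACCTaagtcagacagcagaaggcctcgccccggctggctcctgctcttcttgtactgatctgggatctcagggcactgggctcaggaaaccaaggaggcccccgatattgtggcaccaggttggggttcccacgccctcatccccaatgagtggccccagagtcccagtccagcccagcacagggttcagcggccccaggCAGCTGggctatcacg
Tcf21, chr10:22820144-22820393, minus strand: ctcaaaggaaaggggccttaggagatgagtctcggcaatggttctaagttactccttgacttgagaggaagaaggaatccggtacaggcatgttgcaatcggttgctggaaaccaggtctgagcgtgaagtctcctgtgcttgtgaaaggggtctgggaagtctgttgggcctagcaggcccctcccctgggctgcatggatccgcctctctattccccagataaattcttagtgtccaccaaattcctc

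The table held 10 start-site windows of 300 bases for 7 of the genes, and none was used for Ces1d. The E-box letters were found in 2 of the 10 windows, those of Inmt, where the motif begins 14 bases before the start, and of Plin2, where it begins 16 bases before it. Among all 32851 windows, 16.3% held it. The half-site was found in 4 windows of 3 genes, Plin2, Npnt and Limch1, against 16.3% of all windows. The TATA box letters were found in 2 windows, at 80 and 69 bases before the start of Inmt and in a window of Limch1, against 13.6% of all windows. The upstream 250 bases of Inmt were 48.0% G or C and those of Scube2 were 73.6%, with a median of 52.4% over all windows. The windows of Scube2 and Tcf21 did not hold any of the 3 motifs.

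TPM values are relative to transcript length and allow the genes to be ranked. In control lungs the order was Inmt, 2991 ± 307 TPM (SD, n = 4), Ces1d, 504 ± 81.4, Npnt, 429 ± 36.8, Limch1, 371 ± 30.8, Tcf21, 154 ± 34.2, Plin2, 95.5 ± 16.3, Scube2, 30.1 ± 3.24, and Fgf10, 7.59 ± 0.872. The ranges of Ces1d and Npnt overlapped, as did those of Npnt and Limch1 and those of Tcf21 and Plin2. The other neighbours in this order were apart. Inmt was the 22nd most abundant of all genes by mean TPM in control lungs, the 224th in WT bleomycin lungs and the 92nd in CB1R KO bleomycin lungs. The summed TPM of the 8 genes was 4063 to 4903 in control, 1164 to 1593 in WT bleomycin and 1460 to 2712 in CB1R KO bleomycin libraries, and Inmt had the highest mean TPM of the 8 in each group.

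Bleomycin lowered 7 of the 8 genes in WT lungs and raised Plin2. Of all genes tested, 23.9% were called lower and 25.0% higher in this comparison (edgeR's quasi-likelihood test, Benjamini-Hochberg adjusted p under 0.05), so a call in it was common. The groups did not overlap for 6 genes that were lower and for Plin2, where 18.8% of all genes lay lower without overlap and 21.5% higher. The median log2 fold change of the 8 genes was -0.98, against -0.01 for all genes tested. In bulk tissue, fewer cells of a type and less RNA per cell cannot be told apart.

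In CB1R KO bleomycin lungs each of the 8 genes had a higher mean than in WT bleomycin lungs, with a median log2 fold change of 0.33, against 0.00 for all genes, and 2 of them passed the test, Inmt and Scube2. Of all genes, 0.359% were called higher and 0.620% lower. At an unadjusted p under 0.05, 4 of the 8 genes were higher, the other two being Tcf21 and Npnt, and 7.95% of all genes were. Only Scube2 lay above WT bleomycin without overlap, a position that 2.50% of all genes held, and no member lay below it without overlap, as 3.10% of all genes did. Both bleomycin comparisons with control share the 4 control libraries, and the CB1R KO and WT comparison shares its libraries with both, so they are given side by side.

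Against control, 4 of the 8 genes were lower in CB1R KO bleomycin lungs (Inmt, Scube2, Limch1 and Ces1d) and Plin2 was higher, with a median log2 fold change of -0.55 over the 8, against -0.01 for all genes. Of all genes, 16.3% were called lower and 19.0% higher. The same 5 genes lay apart from control without overlap, where 15.8% of all genes lay lower and 17.7% higher. Tcf21, Npnt and Fgf10 overlapped with control in this comparison and did not pass.

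**Figure D1:**
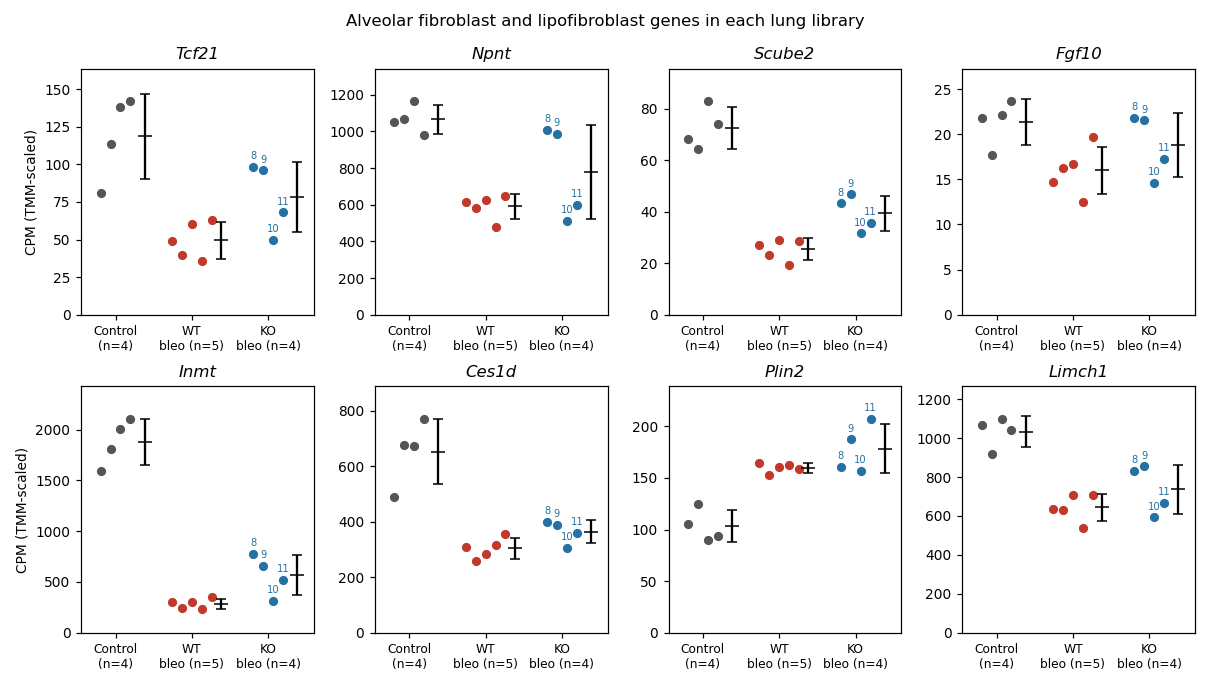
Level of each of the 8 genes in every library, in TMM-scaled CPM on a linear axis from 0, for control (n = 4), WT bleomycin (n = 5) and CB1R KO bleomycin (n = 4). Points are mice, the CB1R KO points carry their library numbers, and the bar beside each group is the mean with its SD. Libraries 8 and 9 lie nearer to control than library 10 in each gene but Plin2.

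Tcf21 encodes a basic helix-loop-helix transcription factor of lung mesenchyme that marks lipofibroblasts and their precursors. It was read at 80.8, 113, 138 and 142 CPM in control libraries 3, 21, 24 and 26, and at 48.8, 39.7, 60.1, 35.6 and 63.3 CPM after bleomycin in WT libraries 4, 2, 5, 4-B2 and 7. Every WT bleomycin library lay below every control library, and the log2 fold change was -1.26 (SE 0.22, edgeR adjusted p = 0.000307), which left 41.7% of the control level. In CB1R KO bleomycin libraries 8, 9, 10 and 11 it was read at 98.2, 96.0, 49.8 and 68.1 CPM. Libraries 8 and 9 lay inside the control range, library 10 lay inside the WT bleomycin range, and library 11 lay between them. The mean was 0.65 higher than in WT bleomycin on the log2 scale (95% confidence interval 0.18 to 1.13, edgeR adjusted p = 0.157) and 0.61 lower than in control (log2 fold change -0.61, edgeR adjusted p = 0.0547), and neither passed. The first of these passed without library 10 (log2 fold change 0.82, edgeR adjusted p = 0.0443, over all alternatives 0.0443 to 0.386).

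TCF21 acts as a dimer with the widely expressed E proteins, encoded by Tcf3, Tcf4 and Tcf12. Of 13 genes of E proteins, related helix-loop-helix factors and their Id inhibitors, 1 was lower and 2 were higher after bleomycin in WT lungs, and none was called between CB1R KO and WT. Tcf12 stood at 105.2 ± 6.69 CPM in control and 113 ± 5.61 in WT bleomycin lungs, and neither it nor Tcf3 (log2 fold change -0.12) nor Tcf4 (log2 fold change 0.10) was called. The genes that passed were Id2, an inhibitor of helix-loop-helix dimers (log2 fold change 0.42), Twist1, a factor of mesenchyme (log2 fold change 1.80 at 0.29 CPM in control), and Tcf23 (log2 fold change -0.72).

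Npnt encodes nephronectin, a basement membrane protein that is bound by integrin alpha 8 beta 1. Its control libraries held 1053, 1067, 1168 and 978 CPM in the order above, and WT bleomycin libraries held 616, 584, 624, 480 and 649. The groups did not overlap, and Npnt fell to 55.4% of control (log2 fold change -0.85, SE 0.17, edgeR adjusted p = 0.000864). CB1R KO libraries 8, 9, 10 and 11 held 1010, 987, 513 and 600 CPM. They fell into a pair inside the control range and a pair inside the WT bleomycin range, with a coefficient of variation of 33.1%, against 7.31% in control and 11.2% in WT bleomycin. The difference from WT bleomycin was 0.40 on the log2 scale (95% confidence interval 0.03 to 0.76, edgeR adjusted p = 0.254) and did not pass.

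Among 7 genes of the nephronectin receptor and of proteins that bind or resemble nephronectin, 1 was lower and 2 were higher after bleomycin in WT lungs. Itga8, the alpha subunit of the receptor and itself a gene of alveolar fibroblasts, fell from 408 to 166 CPM on average (log2 fold change -1.30, edgeR adjusted p = 3.53e-05), and its beta subunit Itgb1 rose (log2 fold change 0.34, edgeR adjusted p = 0.00113). Frem1, a basement membrane protein, rose by a log2 fold change of 0.89. None of the 7 was called in CB1R KO against WT bleomycin, where Itga8 averaged 228 CPM in CB1R KO (log2 fold change 0.45, edgeR adjusted p = 0.213).

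Scube2 encodes a secreted protein that helps to free lipid-modified hedgehog ligands from the cells that make them. It was read at 68.1, 64.5, 83.1 and 74.2 CPM in control and at 27.2, 23.1, 29.2, 19.4 and 28.6 CPM in WT bleomycin libraries. The groups lay apart, and the log2 fold change was -1.504 (SE 0.13, edgeR adjusted p = 8.49e-07). CB1R KO libraries 8, 9, 10 and 11 held 43.3, 46.8, 31.6 and 35.6 CPM, so that each of them lay above every WT bleomycin library and below every control library. Scube2 was 1.54-fold higher in CB1R KO against WT bleomycin (log2 fold change 0.62, SE 0.13, edgeR adjusted p = 0.0416, two-sided exact permutation p = 0.00794, the smallest that 4 against 5 libraries allow). Across the alternatives its log2 fold change stayed between 0.53 and 0.71 and its adjusted p ran from 0.00148 to 0.228, and 15 of 24 alternatives did not pass.

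Most hedgehog genes that passed the test moved the other way from Scube2. Of 17 genes of the pathway tested, 1 was lower and 7 were higher after bleomycin in WT lungs, with a median log2 fold change of 0.27, and none was called between CB1R KO and WT. The nearest relatives of Scube2 rose, Scube1 from 33.1 to 62.9 CPM (log2 fold change 0.92, edgeR adjusted p = 4.30e-05) and Scube3 from 6.56 to 9.31 CPM (log2 fold change 0.51, edgeR adjusted p = 0.0293). The ligand gene Shh rose by a log2 fold change of 0.52 and the response factor Gli1 by 0.57, while the receptor gene Ptch1 fell by 0.62 on the log2 scale.

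Fgf10 encodes a growth factor from mesenchyme that acts on epithelial FGFR2 in lung budding and repair. It was the lowest of the 8 genes, at 21.8, 17.7, 22.1 and 23.7 CPM in control and 14.7, 16.3, 16.7, 12.5 and 19.7 CPM in WT bleomycin libraries. The groups overlapped, since WT bleomycin library 7 lay above control library 21, and the fall to 75.0% of control was the smallest of the 7 (log2 fold change -0.42, SE 0.14, edgeR adjusted p = 0.0266). The call was lost in 8 of 24 alternatives, among them the libraries with lower-case titles alone (adjusted p = 0.0908, over all alternatives 0.00930 to 0.0908) and leaving out control library 3, 24 or 26 or WT bleomycin library 4 or 4-B2. CB1R KO libraries held 21.8, 21.5, 14.60 and 17.2 CPM, with libraries 8 and 9 inside the control range and libraries 10 and 11 inside that of WT bleomycin. The difference from WT bleomycin was 0.23 on the log2 scale (95% confidence interval -0.08 to 0.54, edgeR adjusted p = 0.439).

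Of 13 other genes of fibroblast growth factor signalling tested, 7 were lower and 4 higher after bleomycin in WT lungs. Fgfr2, the receptor of FGF10, fell from 153 to 78.2 CPM (log2 fold change -0.96, edgeR adjusted p = 2.74e-05). Etv4, a transcription factor that this signalling induces, rose from 0.32 to 6.64 CPM (log2 fold change 4.33, edgeR adjusted p = 1.28e-06), and its relative Etv5, which type II cells also express, fell by 0.68 on the log2 scale. Between CB1R KO and WT bleomycin lungs, Spry4, a feedback inhibitor of receptor tyrosine kinases, was lower (log2 fold change -0.72, edgeR adjusted p = 0.0235) and Fgfr4, which is also among the alveolar fibroblast genes below, was higher (log2 fold change 1.04, edgeR adjusted p = 0.0266).

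Inmt encodes an enzyme that methylates tryptamine and related amines, and in mouse lung it is among the most abundant fibroblast transcripts. It had the widest fall of the 8 genes. Control libraries 3, 21, 24 and 26 held 1594, 1811, 2009 and 2108 CPM, and after bleomycin WT libraries 4, 2, 5, 4-B2 and 7 held 301, 239, 304, 231 and 349. Every WT bleomycin library was far below every control library, and 15.1% of the control level was left (log2 fold change -2.72, SE 0.21, edgeR adjusted p = 2.63e-07). It was the 121st of the 15315 genes by p in this comparison.

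CB1R KO libraries 8, 9, 10 and 11 held 776, 659, 314 and 518 CPM of Inmt. Libraries 8, 9 and 11 lay above every WT bleomycin library, library 10 lay inside their range, and none came near the control range. Inmt was 1.99-fold higher than in WT bleomycin lungs (log2 fold change 0.99, SE 0.20, edgeR adjusted p = 0.0371, two-sided exact permutation p = 0.0159) and remained at 30.1% of control (log2 fold change -1.73, SE 0.22, edgeR adjusted p = 4.50e-05). Across the alternatives the log2 fold change against WT bleomycin stayed between 0.80 and 1.19, and the adjusted p ran from 0.000148 to 0.192, with 12 of 24 not passing.

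Neither the call of Inmt nor that of Scube2 against WT bleomycin held with edgeR on the 2 groups alone (adjusted p = 0.0661 and 0.0715), nor with only the lower-case titles (0.192 and 0.228). Both were lost when CB1R KO library 8, 9 or 11, WT bleomycin library 2, 5, 4-B2 or 7 or control library 24 was left out. That of Scube2 was also lost without control library 21 or 26. It was lost too with the counts of CB1R KO library 11 thinned to the depth of the others.

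The other small-molecule methyltransferases differed from Inmt in direction or did not pass, except Hnmt, which methylates histamine and fell by 0.32 on the log2 scale. Of 5 tested, 1 was lower and 3 were higher after bleomycin in WT lungs, and none was called between CB1R KO and WT. Nnmt, the nearest relative of Inmt, which methylates nicotinamide, rose from 5.41 to 12.2 CPM (log2 fold change 1.17, edgeR adjusted p = 8.07e-06).

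Ces1d encodes a carboxylesterase that hydrolyses triacylglycerol. Its control libraries held 489, 678, 672 and 772 CPM and its WT bleomycin libraries 308, 257, 283, 316 and 357. The groups did not overlap, and 46.6% of control was left (log2 fold change -1.10, SE 0.12, edgeR adjusted p = 6.89e-06). CB1R KO libraries held 400, 388, 307 and 360 CPM, all of them below control, and the difference from WT bleomycin was 0.26 on the log2 scale (95% confidence interval -0.01 to 0.52, edgeR adjusted p = 0.308). Of the 31-base words of its coding transcripts in GENCODE M21, 7.5% also occurred in another coding gene, most often Ces1b, so part of its reads could be shared between carboxylesterases. For Tcf21 and Fgf10 these shares were 0.302% and 0.421%, and the other 5 genes shared none.

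Of the 7 other Ces1 genes, 4 passed the count filter, and 3 of these were lower in WT bleomycin than in control lungs. Ces1e fell from 10.9 to 3.71 CPM (log2 fold change -1.55, edgeR adjusted p = 2.75e-05), Ces1f fell by 1.76 and Ces1g fell by 1.40 on the log2 scale, while Ces1b, the one with the most shared sequence, stood at 0.62 and 0.48 CPM and was not called. None of the 4 passed between CB1R KO and WT. Fat cells also express Ces1d, and the adipocyte markers moved with it in the first comparison: 5 of 8 tested were lower in WT bleomycin than in control and their summed TPM was 61.1 to 196, against 103 to 324 in control and 111 to 333 in CB1R KO libraries. Of 10 adipocyte markers, Lep was at 0 in 2 libraries and Ucp1 in 4. Their part in the values of Ces1d was not tested.

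Plin2 encodes perilipin 2, a coat protein of lipid droplets that lipofibroblasts share with macrophages and other cells that store lipid. It was read at 104.96, 125, 89.8 and 93.9 CPM in control and at 165, 153, 160, 163 and 159 CPM in WT bleomycin libraries. Every WT bleomycin library lay above every control library (log2 fold change 0.63, SE 0.10, edgeR adjusted p = 0.000127), and their coefficient of variation was only 2.88%. CB1R KO libraries 8, 9, 10 and 11 held 161, 188, 157 and 207 CPM, inside or above the WT bleomycin range, with library 11 the highest. The rise over control was 0.79 on the log2 scale (SE 0.10, edgeR adjusted p = 6.24e-05), and the difference from WT bleomycin was 0.16 (95% confidence interval -0.05 to 0.37, edgeR adjusted p = 0.425).

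Markers of macrophages and other leukocytes also differed between these groups. Cd68, of macrophages, was higher by a log2 fold change of 1.37 and Cd14, of monocytes, by 1.33 in WT bleomycin than in control lungs, 2 of the 8 leukocyte markers that rose, while 2 fell. Of 11 alveolar macrophage markers, 3 were higher and 4 lower. Their summed TPM was 1033 to 1588 in WT bleomycin and 1023 to 2391 in control libraries. The upper end in control came from library 21 alone, and the other control libraries held 1079 or less. The part of these cells in the level of Plin2 was not tested.

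Among 22 genes of lipid droplets and lipid handling, 9 were lower and 5 higher after bleomycin in WT lungs, with a median log2 fold change of -0.34. G0s2, an inhibitor of adipose triglyceride lipase, fell from 68.6 to 18.0 CPM (log2 fold change -1.93, edgeR adjusted p = 9.34e-07), and Lpl, which frees fatty acids from lipoproteins, rose from 244 to 467 CPM (log2 fold change 0.94, edgeR adjusted p = 5.65e-05). Pth1r, the receptor of the parathyroid hormone related peptide by which epithelium signals to lipofibroblasts, rose from 4.43 to 10.8 CPM (log2 fold change 1.28, edgeR adjusted p = 1.47e-05). Plin1, the perilipin of fat cells, was lower (3.51 against 12.2 CPM, edgeR adjusted p = 0.0227), so the perilipins did not move one way. G0s2 alone passed between CB1R KO and WT bleomycin lungs (log2 fold change 0.81, edgeR adjusted p = 0.0416).

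Of 11 genes of retinoid storage and synthesis tested, 4 were lower and 3 higher after bleomycin in WT lungs. Aldh1a1, which makes retinoic acid, fell from 1305 to 593 CPM (log2 fold change -1.14, edgeR adjusted p = 6.74e-05), Lrat, which esterifies retinol for storage, from 67.5 to 17.7 CPM (log2 fold change -1.94, edgeR adjusted p = 0.00168), and Rbp4, a retinol carrier, by 0.66 on the log2 scale. Aldh1a3, a relative of Aldh1a1, rose from 2.65 to 7.70 CPM in WT bleomycin lungs and was lower in CB1R KO against WT bleomycin (log2 fold change -1.36, edgeR adjusted p = 0.0384), the only retinoid gene called there.

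Limch1 encodes an actin-binding protein that activates non-muscle myosin II. It was read at 1070, 918, 1101 and 1042 CPM in control and at 637, 632, 707, 537 and 710 CPM in WT bleomycin libraries. The groups did not overlap (log2 fold change -0.68, SE 0.11, edgeR adjusted p = 0.000176). CB1R KO libraries held 830, 856, 593 and 666 CPM, each below control, and libraries 8 and 9 lay above every WT bleomycin library. The difference from WT bleomycin was 0.19 on the log2 scale (95% confidence interval -0.05 to 0.43, edgeR adjusted p = 0.404). Of 10 genes of non-muscle myosin and related LIM proteins, 4 were lower and 1 was higher after bleomycin in WT lungs, Myh10 by a log2 fold change of -0.49 and Myh9 by 0.33, both of them heavy chains of that myosin, and none was called between CB1R KO and WT.

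**Figure D2:**
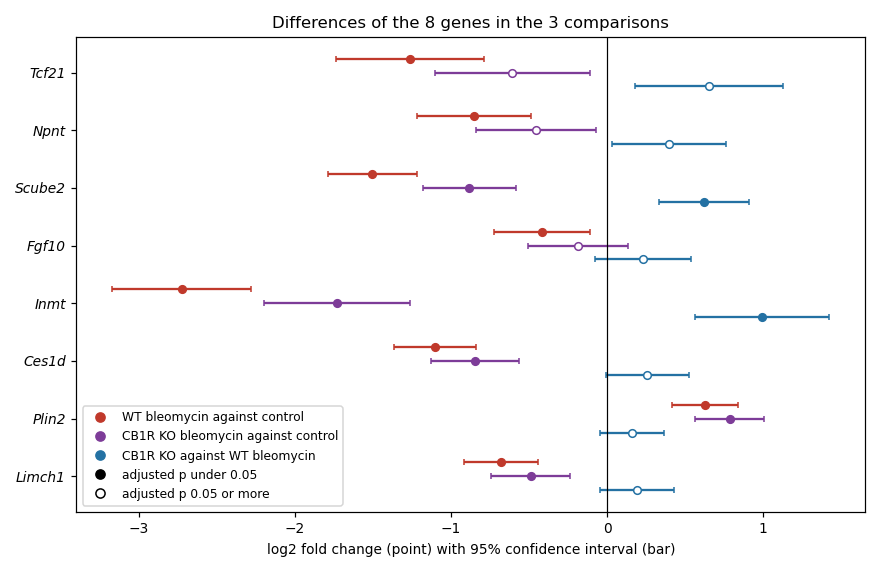
Log2 fold change of each gene in the 3 comparisons, with 95% confidence intervals from edgeR and filled points where the adjusted p was under 0.05. In red 7 genes lie below 0 and Plin2 above it, and in blue all 8 points lie above 0 with those of Inmt (0.99) and Scube2 (0.62) filled.

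The CB1R KO libraries were spread between the levels of control and of WT bleomycin. On a scale where the control mean is 0% and the WT bleomycin mean is 100% of the change in log2 CPM, library 8 kept a median of 46.0% over the 8 genes, library 9 40.2%, library 11 73.8% and library 10 97.3%. Library 10 lay inside the WT bleomycin range for 7 genes and just above it for Scube2, and its lowest share was 78.5%. Libraries 8 and 9 lay inside the control range for Tcf21, Npnt and Fgf10. Plin2 stood apart from the other genes, since library 11 kept 159% and library 9 136% of its rise.

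**Figure D3:**
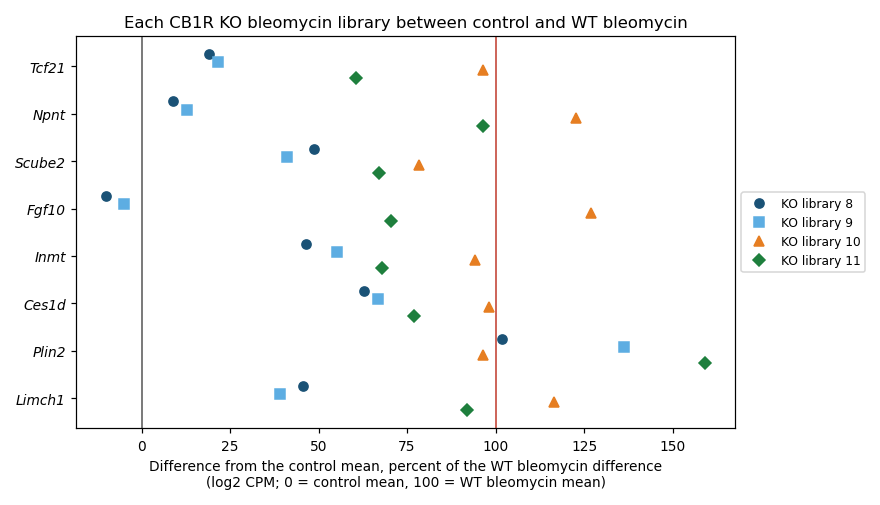
Place of each CB1R KO bleomycin library between the mean of control (0) and of WT bleomycin (100), as percent of the difference in log2 CPM, for each gene. Libraries 8 and 9 lie to the left for most genes, library 10 lies between 78.5% and 127%, and Plin2 has libraries 9 and 11 beyond 100.

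Markers of other cells differed along with these libraries. The summed TPM of 8 type II cell markers was 32065 to 37538 in control, 19092 to 22812 in WT bleomycin and 33348, 37532, 23892 and 36084 in CB1R KO libraries 8, 9, 10 and 11. Library 10 was the one closest to WT bleomycin, as it was by the median over the fibroblast genes (97.3%). By single genes, library 11 was closer to the WT bleomycin mean for Npnt and Limch1, and library 8 for Plin2. Library 11 lay inside the control range of the type II sum but kept a median of 73.8% over the fibroblast genes. Of the 8 type II markers, 7 were lower in WT bleomycin than in control, and 4 were higher in CB1R KO against WT bleomycin (Sftpc, Sftpa1, Lyz1 and Lamp3). The 9 markers of activated fibroblasts all rose after bleomycin in WT lungs (Tnc by a log2 fold change of 4.43 and Col1a1 by 3.13), and 7 were higher in CB1R KO bleomycin than in control. Between CB1R KO and WT their median log2 fold change was -0.58 and none was called, where 0.620% of all genes were called lower. The 9 markers summed to 361 to 475 TPM in control, 1629 to 2163 in WT bleomycin and 1234, 1177, 1786 and 1502 in libraries 8, 9, 10 and 11. The adipocyte markers followed another order, 111, 333, 157 and 288 TPM in libraries 8, 9, 10 and 11, with none of 8 called against WT bleomycin and a median log2 fold change of 1.30. The 8 leukocyte markers summed to 6487 to 9620 TPM in WT bleomycin and 9998 TPM or more in every CB1R KO library, most of it from Lyz2, which type II cells also express. None of them was called between these groups, and their median log2 fold change was 0.19. The part of these cells in the differences of Inmt and Scube2 was not tested.

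In the WT bleomycin and control comparison, markers of other resident cells were also lower: 8 of 8 of endothelium, 5 of 8 of type I cells (1 was higher), 4 of 10 of pericytes and smooth muscle (3 were higher) and 2 of 6 of mesothelium (1 was higher). Adventitial fibroblasts, which lie around vessels and airways, had 2 of 9 markers lower and 4 higher, with a median log2 fold change of 0.25. Of 2 genes tested from a list of liver markers, 1 was lower. Between CB1R KO and WT bleomycin lungs, none of these markers was called apart from Actg2 of smooth muscle (log2 fold change -0.80, edgeR adjusted p = 0.0231). Calls were rare there, at 0.359% of all genes higher and 0.620% lower. Type I markers summed to 5756, 5433, 4088 and 5195 TPM in CB1R KO libraries 8, 9, 10 and 11, against 4048 to 4458 in WT bleomycin. Endothelial markers summed to 2099, 2226, 1829 and 1929 TPM, against 1678 to 1869. In both, only library 10 lay inside the WT bleomycin range.

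The fall was not shared by every gene reported for alveolar fibroblasts. Of 21 further such genes, 14 were lower and 2 were higher after bleomycin in WT lungs, with a median log2 fold change of -0.50. Pdgfra, the growth factor receptor by which these fibroblasts are often sorted, stood at 373 ± 35.5 CPM in control, 356 ± 53.2 in WT bleomycin and 335 ± 34.0 in CB1R KO bleomycin lungs and was not called in any comparison. Slc7a10, an amino acid transporter that fat cells also express, was at 32.1, 3.95 and 12.9 CPM in the 3 groups (log2 fold change -3.02 after bleomycin in WT lungs, edgeR adjusted p = 7.25e-06), and Wnt2, a ligand that mesenchyme sends to epithelium, was at 20.6, 8.60 and 12.3 CPM.

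Of the same 21 genes, 3 were higher in CB1R KO against WT bleomycin and none was lower. They were Slc7a10 (log2 fold change 1.68, SE 0.35, edgeR adjusted p = 0.0379) and the genes already given above, Fgfr4 and G0s2. The groups did not overlap for any of the 3, and the part of fat cells in Slc7a10 and G0s2 was not tested. Against control, 12 of the 21 were lower and 2 higher in CB1R KO bleomycin lungs.

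**Figure D4:**
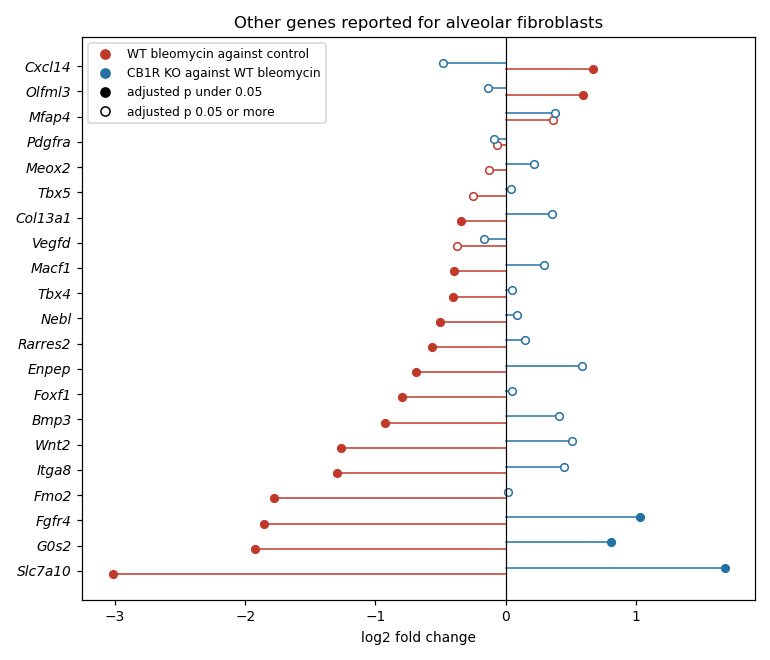
Log2 fold change of 21 further genes reported for alveolar fibroblasts, in WT bleomycin against control (red) and in CB1R KO against WT bleomycin (blue), with filled points where the edgeR adjusted p was under 0.05. In red 14 genes are filled below 0 and 2 above it, and in blue Slc7a10, Fgfr4 and G0s2 are filled above 0.

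The proportions of the genes to each other were compared through the log2 ratio of each to Tcf21, with 21 two-sided exact permutation tests over 7 genes and 3 comparisons. The ratio of Inmt to Tcf21 was 1.47 lower in WT bleomycin than in control on the log2 scale (log2 difference -1.47), that of Plin2 was 1.90 higher and that of Fgf10 0.84 higher, each with an exact permutation p of 0.00794 and a Benjamini-Hochberg adjusted p of 0.0556. None of the 21 passed after adjustment. A p of 0.00794 is the smallest that 4 against 5 libraries allow, and even the ratios that reached it did not pass. These tests therefore cannot show that the proportions stayed the same. The ratio of Scube2 to Tcf21 differed by -0.02 between CB1R KO and WT bleomycin (exact permutation p = 0.905), which was the smallest difference of the 21.

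Over the 13 libraries, the patterns of the 8 genes were compared by the root mean square difference of log2 CPM after each gene was centred on its own mean. Limch1 was closest to Fgf10 (0.16) and to Npnt (0.16), Scube2 was closest to Tcf21 (0.23), and Inmt and Plin2 were farthest apart (1.47). The 3 genes nearest to Inmt were Faim2 (0.32), Ptgfr (0.32), the receptor of prostaglandin F2 alpha, and Igfbp6 (0.36), with 1.20 as the median over all genes. Among the nearest to Scube2 were Mmp28, a matrix metalloproteinase (0.12), and Ppp1r14a (0.13), against a median of 0.69. Nearest to Tcf21 were Rab3a (0.19), Tmem204 (0.22) and Tmod1 (0.22), and nearest to Npnt were Nckap5 (0.11), Pdzd2 (0.12) and Mme (0.13). For Ces1d they were Ramp2 (0.10), Fam13a (0.11) and Ltbp4 (0.12), for Limch1 Coro2b (0.08), Axin2 (0.09) and Mllt6 (0.10), for Fgf10 Fhl1 (0.12), Zfp185 (0.13) and Rasl12 (0.13), and for Plin2 Galc (0.09), Rab15 (0.13) and Uap1l1 (0.13). No member was among the 3 nearest of another.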

How the data were processed

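Lung RNA of 4 control, 5 WT bleomycin and 4 CB1R KO bleomycin mice was sequenced by the authors from oligo(dT)-selected libraries as paired 150-base reads. The authors quantified them with Kallisto on the mouse reference of Ensembl release 105 (GRCm39 in the processing notes) and summed protein-coding transcripts per gene symbol. The deposited tables hold estimated counts, not normalized, of which 64.8% are not whole (tolerance 0.001), and the deposited TPM values are relative to transcript length and sequencing depth. The values of the 13 single-sample tables matched them. The TPM table has 1 column that matches no sample, which was not used.

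Samples were grouped by their treatment labels. WT bleomycin libraries 4 and 4-B2 share a number in their titles but have separate lung function entries in the study's metadata, and were counted as separate mice. The labels do not state how the animals relate otherwise, so p-values measure the spread between these samples. Estimated counts were rounded, filtered with filterByExpr (15315 of 20270 genes left) and TMM-normalized. All 13 libraries were fitted in 3 groups without covariates with edgeR 4.0.16 in R 4.3.3 (quasi-likelihood test), with Benjamini-Hochberg adjustment over all genes tested and a threshold of 0.05. A prior count of 2 entered log2 CPM. For single values, exact permutation tests (two-sided) were used, whose smallest p is 0.00794 for 4 against 5 and 0.0286 for 4 against 4 libraries. The code was tested on simulated data. Plots were drawn with matplotlib 3.10.9 under Python 3.11.15, from tables made with numpy 2.4.6 and pandas 2.3.3.

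The members and the gene lists were chosen with earlier results of these data known, so list counts are descriptions and lists were not tested as sets. Some genes stand in more than 1 list: G0s2, Fgfr4 and Itga8 of the alveolar fibroblast list also stand in the lipid, the growth factor and the nephronectin list, Plin1, Cidea, Cidec and Lipe in the lipid and the adipocyte list, and Etv5 in the growth factor and the type II list, and each is counted in both. The genes named were all 8 members, the genes of each list with the lowest p or that encode a partner or relative of a member, and the 3 genes of nearest pattern per member. Some genes selected in this way are not reported here. Examples named for the cell type lists were picked after their values were seen. Alternatives were other count filters, upper-quartile or RLE scaling, DESeq2 1.42.0 over 3 or 2 groups, limma 3.58.1 on log2(TPM + 1) and log2(TPM + 0.1), edgeR on 2 groups, the libraries with lower-case titles, each library left out in turn, and CB1R KO library 11 thinned to the depth of the others, which was chosen after its total was seen.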

Additional observations from a re-analysis of the deposited data

How the results depend on the processing

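Across 24 alternatives, the 8 genes gave 576 fold changes, of which none changed direction, 530 stayed on their side of the threshold, 35 lost the call and 11 gained it. Of the 35 lost calls, 27 were of Inmt and Scube2 between CB1R KO and WT bleomycin and 8 of Fgf10 between WT bleomycin and control. The gained calls were of Tcf21 and Npnt: 9 between CB1R KO bleomycin and control (for Tcf21 with upper-quartile normalization, both DESeq2 fits and without control library 3 or CB1R KO library 8 or 9, for Npnt with DESeq2 on all libraries and without CB1R KO library 8 or 9) and 2 of Tcf21 between CB1R KO and WT (DESeq2 on 2 groups, adjusted p = 0.0472, and without CB1R KO library 10, adjusted p = 0.0443, with 0.0443 to 0.386 over all alternatives). The members called higher in CB1R KO than in WT bleomycin, 2 as reported, were 0 with limma on either pseudocount, with edgeR on 2 groups and with the lower-case titles, 1 with library 11 thinned, and 0 to 3 when single libraries were left out. The genes called in that comparison over the whole table, 150 as reported, were 640 with DESeq2 on all libraries, 644 with DESeq2 on 2 groups, 93 with limma and a pseudocount of 0.1, 88 with edgeR on 2 groups and 6 with the lower-case titles, and 1 (without CB1R KO library 9) to 653 (without CB1R KO library 10) when single libraries were left out. The cause of these shifts was not tested. Single genes other than the 8 were not followed across the alternatives, and their calls above are from the main fit alone. With 6 genes called in the whole table with the lower-case titles, the calls named above for such genes between CB1R KO and WT bleomycin cannot all have held there. How far counting depth limits each gene was not compared. No paired analysis was possible because the groups share no replicate numbers.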
